A study of Mus musculus with 6 samples.

Results

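Bone morphogenetic protein (BMP) signalling genes were examined in the growth plate, the cartilage layer in which long bones lengthen. The set held 10 genes, namely the ligands Bmp2, Bmp4, Bmp6, Bmp7 and Gdf5, the receptors Bmpr1a, Bmpr1b and Bmpr2, and the antagonists Nog and Grem1. They were found by matching the accession of each array probe, control spots left out, to these symbols, which gave 13 of the 55681 probes on the array. Of the 10 genes, 7 had 1 probe, while Bmp4, Gdf5 and Bmpr1b had 2 each. Probes entered the test when some genotype had both of its arrays well above background, which held for 11 of the 13 probes, standing for 9 genes. Bmpr1a and the Bmp4 probe A_55_P1959022 did not.

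BMP ligands are secreted dimers that bind type I and type II serine-threonine kinase receptors, and the activated type I receptor phosphorylates SMAD transcription factors that enter the nucleus. In the growth plate the pathway is known to promote proliferation and maturation of chondrocytes, the cells of cartilage. Antagonists such as noggin and gremlin bind the ligands outside the cell and keep them from the receptors.

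The arrays compared mice labelled ATF6aKO, mice labelled ATF6bKO and wild-type (WT) mice, with 2 arrays for each genotype. ATF6a (gene Atf6) and ATF6b (gene Atf6b) are membrane proteins of the endoplasmic reticulum whose cytosolic part is released under protein-folding stress and acts as a transcription factor. All groups were untreated male C57BL/6J mice aged 4 weeks, and RNA came from the tibial growth plate after laser microdissection. The labels do not say where either gene was deleted, whether the deletion reached every cell, or whether separate animals stand behind the 2 arrays of each genotype. The p-values below therefore weigh each difference against the spread between these arrays, which may be technical.

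The 4 knockout arrays lay on 1 slide and were read in the red channel, and the 2 WT arrays lay on another slide and were read in a single channel called green, so slide, channel and genotype cannot be told apart in any comparison with WT. The comparison of ATF6aKO with ATF6bKO lies within 1 slide. Between 86.9% and 96.7% of the spots of an array were well above background. The targeted genes did not pass the test: Atf6 averaged 7.02 in ATF6aKO, 6.96 in ATF6bKO and 7.17 in WT on the log2 scale (ATF6aKO minus WT -0.15, adjusted p = 0.495). Atf6b averaged 8.70 in ATF6aKO, 8.59 in ATF6bKO and 9.13 in WT (ATF6bKO minus WT -0.54, adjusted p = 0.0774). The files used here do not say where on its transcript either probe lies, so neither level checks a deletion.

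The labelled tissue was checked against 12 chondrocyte markers, all measured. Summed over the list, ATF6aKO arrays gave 90600 and 109000 on the linear scale, ATF6bKO arrays 58700 and 26200, and WT arrays 16800 and 20200. Against WT, 10 of the 12 were higher and 1 lower in ATF6aKO (median log2 difference 2.92), and 7 were higher and 2 lower in ATF6bKO (median 1.45). Col2a1, the brightest of the 12, differed from WT by 4.19 in ATF6aKO and 2.86 in ATF6bKO. Over all named genes on the array, each by its brightest tested probe, 43.7% were called in ATF6aKO and 38.6% in ATF6bKO. Among the lists of other cell types, endothelial markers had 0 of 7 higher and 4 lower in each knockout (57.1% called), and erythroid markers had 0 of 3 measured higher and 2 lower in each (66.7% called). The 7 endothelial markers summed to 1880 and 1640 on ATF6aKO arrays, 1760 and 1830 on ATF6bKO arrays, and 4160 and 3810 on WT arrays. The 3 erythroid markers summed to 705 and 578 on ATF6aKO arrays, 669 and 674 on ATF6bKO arrays, and 30200 and 5030 on WT arrays. The 5 measured osteoblast and osteocyte markers, 1 of which was lower in each knockout, summed to between 1120 and 1440 on the knockout arrays, and to 26000 and 1900 in WT, so WT replicate 1 was well above WT replicate 2 here, as in the erythroid list. Macrophage and osteoclast markers summed to between 8660 and 12800 in the knockouts and to 13800 and 8170 in WT, with 1 of 4 lower in ATF6aKO and 0 of 4 called in ATF6bKO. Here the sum leans on Csf1r, which averaged 13.25 in ATF6aKO, 13.4 in ATF6bKO and 12.83 in WT. In the same order Acp5 averaged 7.11, 6.99 and 9.88, and Ctsk 6.45, 6.04 and 8.25. Neither passed, with SE of 1.14 and 0.95. The median deviation over the 4 markers was 1.79 on WT replicate 1 and -0.35 on WT replicate 2, so the WT arrays differed here too. None of the 4 perichondrium, tendon and synovium markers passed in either comparison, and their sum was 1740 and 2350 on ATF6aKO arrays, 1890 and 2300 on ATF6bKO arrays, and 1820 and 1520 on WT arrays. The 5 skeletal muscle markers had 1 higher and 2 lower in each knockout. They summed to between 1830 and 3630 on the knockout arrays and to 1280 and 1320 in WT. This sum leans on the 1 higher gene, Tnni2, which averaged 11.14 in ATF6aKO, 10.67 in ATF6bKO and 8.05 in WT. No measured marker of these lists stayed below background on all arrays. In this bulk RNA, fewer cells of a type and less RNA per cell cannot be told apart, and the part of cell composition in the BMP results was not tested.

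Promoter sequences were examined for the BMP genes because ATF6 is known to bind the endoplasmic reticulum stress response element, in which CCACG is contacted by ATF6 and CCAAT by the factor NF-Y. The RefSeq promoter table of build GRCm38.p6 held 8 windows for 6 of the 10 genes, namely Bmp4, Bmp6, Bmpr1a, Bmpr1b, Bmpr2 and Grem1. The windows of the 3 genes that are in that table and had a probe past the test against WT are shown, each the 250 bases before a transcription start, written 5′ to 3′ along the gene, which lies on the minus strand in every case. Capitals mark CCACG or CCAAT on either strand, so that CGTGG and ATTGG are the same letters read from the other strand. The window of the second Bmpr1b start held neither, and nor did a further Bmpr1b window that overlaps it. The windows are Bmp4 at chr14:46390670-46390919, Bmpr1b at chr3:141982265-141982514 and chr3:141931589-141931838, and Grem1 at chr2:113758649-113758898.
Bmp4: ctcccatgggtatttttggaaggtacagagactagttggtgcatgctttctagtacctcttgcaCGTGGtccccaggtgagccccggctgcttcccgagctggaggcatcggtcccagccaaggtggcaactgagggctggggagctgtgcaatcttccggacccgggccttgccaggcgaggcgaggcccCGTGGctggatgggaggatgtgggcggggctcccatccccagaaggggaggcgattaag
Bmpr1b, distal start: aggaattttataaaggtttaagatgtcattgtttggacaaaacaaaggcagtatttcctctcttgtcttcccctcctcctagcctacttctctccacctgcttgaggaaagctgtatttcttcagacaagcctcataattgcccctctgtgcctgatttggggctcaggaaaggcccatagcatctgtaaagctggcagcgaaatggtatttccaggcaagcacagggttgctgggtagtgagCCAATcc
Bmpr1b, second start: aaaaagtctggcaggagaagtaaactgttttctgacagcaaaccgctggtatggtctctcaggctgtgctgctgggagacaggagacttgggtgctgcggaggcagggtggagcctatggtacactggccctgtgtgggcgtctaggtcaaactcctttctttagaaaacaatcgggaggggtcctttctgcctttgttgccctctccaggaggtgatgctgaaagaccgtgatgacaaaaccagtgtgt
Grem1: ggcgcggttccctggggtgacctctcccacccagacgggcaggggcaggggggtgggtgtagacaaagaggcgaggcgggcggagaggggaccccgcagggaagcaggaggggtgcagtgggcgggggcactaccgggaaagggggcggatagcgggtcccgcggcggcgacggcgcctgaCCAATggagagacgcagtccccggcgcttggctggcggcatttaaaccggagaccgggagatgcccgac

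The full element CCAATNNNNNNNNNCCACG was in 0 of the 8 windows of the BMP genes and in 0.113% of all 32851 windows of the same length. The related elements ATTGGNCCACG and TGACGTGG were also in 0 of the 8 windows, against 0.0304% and 0.563% of all windows. The short letters CCACG, which the longer elements contain, were in 1 of the 8 windows and in 28.3% of all windows: the Bmp4 window had 2 matches, starting 186 and 59 bases before the transcription start. CCAAT was in 3 of the 8 windows, those of Bmpr1a, of the distal Bmpr1b start and of Grem1, and in 33.8% of all windows. Both strands were searched. These matches describe letters in a window and say nothing of binding.

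Against WT, the ligand Bmp2 and the receptor Bmpr1b, by 1 of its 2 probes, were higher in both knockouts, and the antagonist Grem1 was lower in both. Bmp7 was higher and Bmp4 lower in ATF6aKO. In ATF6aKO 5 of the 11 tested probes passed an adjusted p of 0.05 (limma, Benjamini-Hochberg over all 52495 tested probes), 3 higher and 2 lower. Of all tested probes 43.7% passed, 20.4% higher and 23.2% lower, so the share among the BMP probes lay near that of the array. In ATF6bKO 3 of 11 passed, 2 higher and 1 lower, against 38.9% of all tested probes, 18.4% higher and 20.5% lower. The median difference of the 11 probes was -0.11 in ATF6aKO and 0.03 in ATF6bKO, beside -0.04 and -0.03 over all tested probes. Scaling each array to its 75th percentile in place of quantile normalisation shifted the median of all probes to 0.12 for ATF6aKO and 0.18 for ATF6bKO, and it put 58.4% and 62.4% of all called probes on the higher side, where quantile normalisation put 46.8% and 47.3%. The members stay inside the cloud of all tested probes, as the plot of difference against mean level shows.

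**Figure D1:**
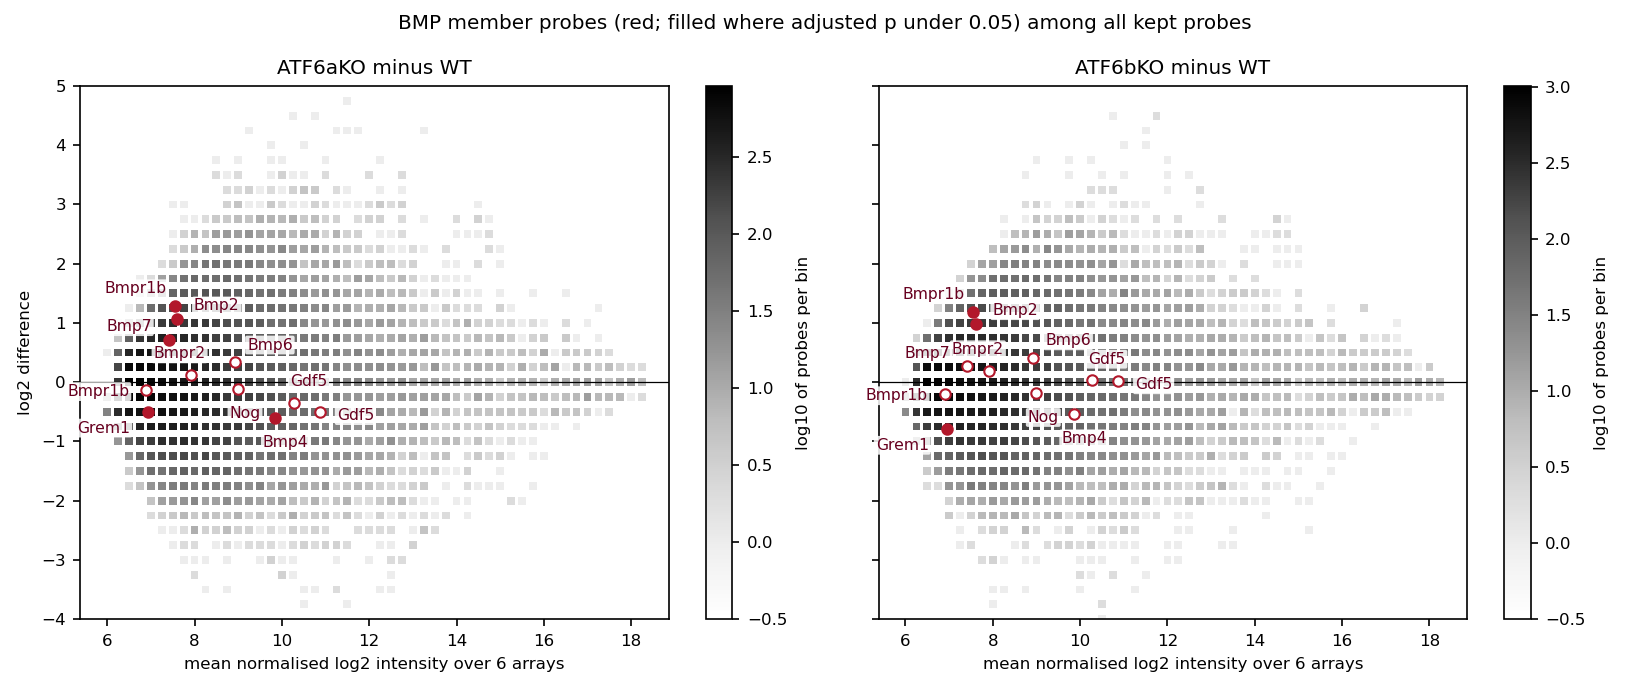
Each panel plots the log2 difference of a knockout from WT (vertical axis) against the mean normalised log2 intensity over the 6 arrays (horizontal axis). Grey squares count all 52495 tested probes per bin, darker for more probes (log10 scale). The 11 BMP probes are red circles, filled where the adjusted p is under 0.05. The filled circles number 5 in the ATF6aKO panel and 3 in the ATF6bKO panel, and none lies at the edge of the grey cloud.

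Levels below are normalised log2 intensities, 1 unit being a doubling, and each gene's value is given for replicates 1 and 2 of a genotype. Bmp2, a ligand needed for chondrocyte proliferation and maturation in mice, had levels of 7.91 and 8.06 on ATF6aKO arrays, 7.83 and 7.99 on ATF6bKO arrays, and 6.98 and 6.86 on WT arrays. All 4 knockout arrays lay above both WT arrays, and the knockouts overlapped each other. Bmp2 was 2.09-fold higher in ATF6aKO than in WT (log2 difference 1.07, SE 0.16, 95% interval 0.69 to 1.44, adjusted p = 0.00207) and 1.99-fold higher in ATF6bKO than in WT (0.99, SE 0.16, 95% interval 0.61 to 1.37, adjusted p = 0.00313). Both calls held when any 1 of the 6 arrays was left out, with adjusted p up to 0.0155 for ATF6aKO and 0.0313 for ATF6bKO.

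Bmp4, a ligand of early embryonic and skeletal development, was read by the probe A_55_P2154387 at 9.82 and 9.45 on ATF6aKO arrays, 9.72 and 9.66 on ATF6bKO arrays, and 10.38 and 10.08 on WT arrays. The WT arrays were the highest, with no overlap with either knockout. The level fell by 0.60 in ATF6aKO relative to WT (SE 0.19, 95% interval -1.04 to -0.15, adjusted p = 0.0379, 1.51-fold lower), and the ATF6bKO difference of -0.54 did not pass (SE 0.19, adjusted p = 0.0578). The ATF6aKO call was lost without ATF6aKO replicate 2 (-0.41, adjusted p = 0.180), without WT replicate 1 (-0.45, adjusted p = 0.142), without either ATF6bKO array (-0.60, adjusted p = 0.0692), and with no offset in the background correction (-0.63, adjusted p = 0.0714); the ATF6bKO arrays enter this comparison only through the shared estimate of spread. The ATF6bKO difference passed without either ATF6aKO array (adjusted p = 0.0462) and without WT replicate 2 (-0.69, adjusted p = 0.0442). It also passed under scaling to the 75th percentile (-0.61, adjusted p = 0.0384). In the authors' deposited table it was -2.93 (adjusted p = 0.00477). That table follows the green channel in the knockouts, where this probe was not well above background on any array. Its value is therefore no check of the difference. The second Bmp4 probe, A_55_P1959022, was not well above background on any array, at 5.80 and 5.80 on ATF6aKO arrays, 5.77 and 5.77 on ATF6bKO arrays, and 5.72 and 5.95 on WT arrays, and gives no fold.

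Bmp6, a ligand known from hypertrophic chondrocytes, had levels of 8.74 and 9.27 on ATF6aKO arrays, 9.10 and 9.05 on ATF6bKO arrays, and 8.56 and 8.77 on WT arrays. ATF6aKO replicate 1 lay within the WT range, whereas both ATF6bKO arrays lay above it. Neither difference passed, at 0.34 for ATF6aKO (SE 0.21, 95% interval -0.15 to 0.82, adjusted p = 0.221) and 0.41 for ATF6bKO (SE 0.21, 95% interval -0.07 to 0.90, adjusted p = 0.155). Without ATF6aKO replicate 1 the ATF6aKO difference was 0.61 and passed, and without ATF6aKO replicate 2 it was 0.07. In the authors' deposited table Bmp6 was lower than in WT and passed in both knockouts. The differences were -1.35 in ATF6aKO (adjusted p = 0.0154) and -1.40 in ATF6bKO (adjusted p = 0.0136). That table follows the green channel in the knockouts, where the Bmp6 probe was not well above background on any array.

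Bmp7, a ligand also called osteogenic protein and needed for kidney and eye development in mice, had levels of 7.58 and 8.02 on ATF6aKO arrays, 7.44 and 7.24 on ATF6bKO arrays, and 6.84 and 7.31 on WT arrays. Both ATF6aKO arrays lay above both WT arrays, and ATF6bKO overlapped WT. Bmp7 was 1.65-fold higher in ATF6aKO than in WT (0.72, SE 0.23, 95% interval 0.19 to 1.25, adjusted p = 0.0349), and the ATF6bKO difference of 0.27 did not pass (SE 0.23, adjusted p = 0.382). The ATF6aKO call was lost without ATF6aKO replicate 2 (0.50, adjusted p = 0.180), without WT replicate 1 (0.49, adjusted p = 0.135) and without either ATF6bKO array (0.72, adjusted p = 0.0590). In the authors' deposited table the ATF6bKO difference of Bmp7 was 1.9 and passed (adjusted p = 0.00571). That table follows the green channel in the knockouts, where the Bmp7 probe was not well above background on any array.

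Gdf5, a BMP-family ligand of joint formation whose loss gives short digits in mice and which signals through BMPR1B, had 2 tested probes. The probe A_55_P2131831 read 10.73 and 10.34 on ATF6aKO arrays, 10.99 and 11.11 on ATF6bKO arrays, and 10.90 and 11.17 on WT arrays. The probe A_66_P127070 read 10.03 and 10.03 on ATF6aKO arrays, 10.34 and 10.49 on ATF6bKO arrays, and 10.28 and 10.49 on WT arrays. By both probes the ATF6aKO arrays were the lowest of the 6 and ATF6bKO overlapped WT. The ATF6aKO differences from WT of -0.50 (SE 0.19, adjusted p = 0.0704) and -0.35 (SE 0.16, adjusted p = 0.112) did not pass, and the ATF6bKO differences were 0.02 (95% interval -0.43 to 0.47) and 0.03 (95% interval -0.35 to 0.40). Without ATF6aKO replicate 1 the ATF6aKO difference by A_55_P2131831 was -0.70 and passed. In the authors' deposited table Gdf5 was lower and passed by both probes. The values were -3.76 (adjusted p = 0.00299) and -2.0 (adjusted p = 0.00858) in ATF6aKO. In ATF6bKO they were -3.22 (adjusted p = 0.00447) and -1.94 (adjusted p = 0.00932). That table follows the green channel in the knockouts, where neither Gdf5 probe was well above background. Its values are therefore no check of the levels above.

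**Figure D2:**
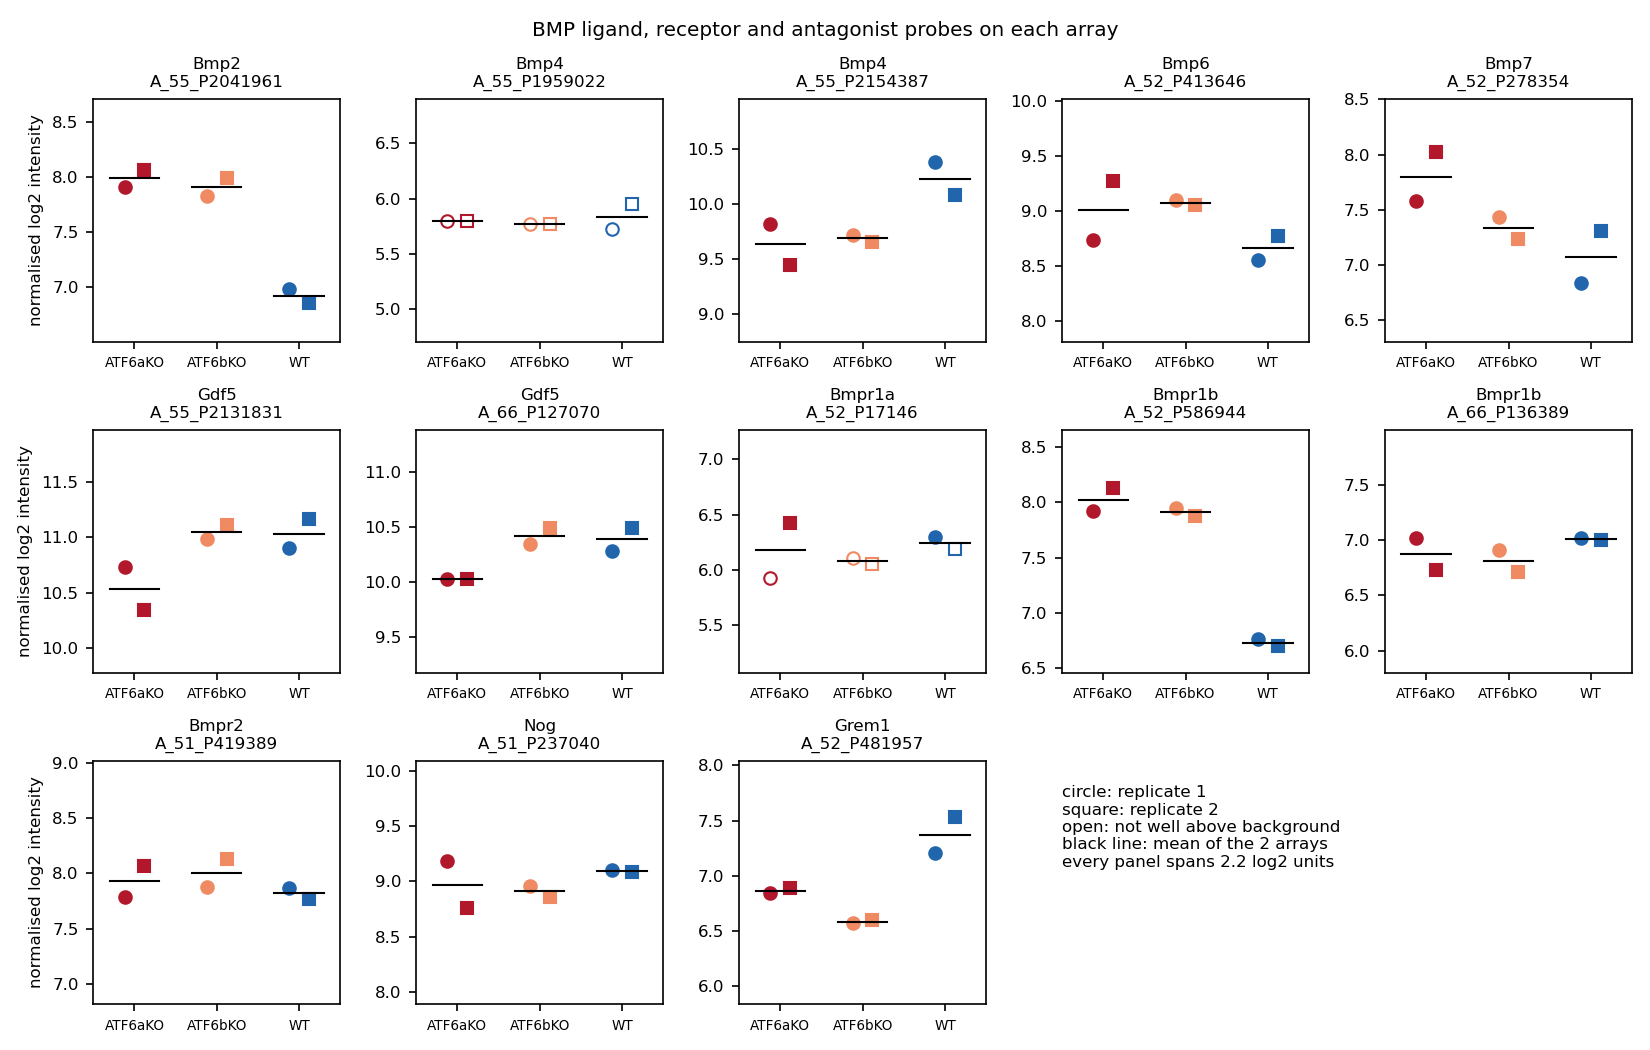
Normalised log2 intensity (vertical axis) of each of the 13 BMP probes on each of the 6 arrays, by genotype, with ATF6aKO left, ATF6bKO in the middle and WT right. Circles are replicate 1 and squares replicate 2, open where the spot was not well above background, and the black line is the mean of the 2 arrays; every panel spans the same number of log2 units. The Bmp2 probe and the Bmpr1b probe A_52_P586944 sit below 7 in WT and above 7.8 in both knockouts.

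Bmpr1b, the type I receptor that carries GDF5 signals in digit cartilage, gave different results by its 2 probes. The probe A_52_P586944 read 7.92 and 8.13 on ATF6aKO arrays, 7.95 and 7.88 on ATF6bKO arrays, and 6.76 and 6.70 on WT arrays. Every knockout array lay above both WT arrays. By this probe Bmpr1b was 2.45-fold higher in ATF6aKO than in WT (1.29, SE 0.16, 95% interval 0.92 to 1.66, adjusted p = 0.00102) and 2.28-fold higher in ATF6bKO than in WT (1.19, SE 0.16, 95% interval 0.82 to 1.56, adjusted p = 0.00159). Both calls held with any 1 array left out, with adjusted p up to 0.00870 for ATF6aKO and 0.0209 for ATF6bKO. The probe A_66_P136389 read 7.02 and 6.73 on ATF6aKO arrays, 6.91 and 6.71 on ATF6bKO arrays, and 7.02 and 7.0 on WT arrays. Its knockout spots lay close to background, at between 1.88 and 2.95 times the local background, against 8.26 and 6.47 times on WT arrays. Here ATF6aKO overlapped WT, both ATF6bKO arrays lay below WT, and neither difference passed, at -0.13 for ATF6aKO (95% interval -0.54 to 0.27, adjusted p = 0.558) and -0.20 for ATF6bKO (95% interval -0.60 to 0.20, adjusted p = 0.392). Scaling to the 75th percentile turned the sign of both, to 0.12 in each knockout. The authors' deposited table turned them too, to 1.40 in ATF6aKO, which passed (adjusted p = 0.0321), and 1.01 in ATF6bKO (adjusted p = 0.0800). That table follows the green channel in the knockouts, where neither Bmpr1b probe was well above background on any array. Both probes carry the same transcript accession, and which part of the transcript each one reads is not given in the sources used here.

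Bmpr2, the type II receptor that phosphorylates the type I receptors, had levels of 7.79 and 8.07 on ATF6aKO arrays, 7.88 and 8.13 on ATF6bKO arrays, and 7.87 and 7.77 on WT arrays. The genotypes lay close together, with overlap between ATF6aKO and WT. The differences were 0.12 in ATF6aKO (95% interval -0.30 to 0.53, adjusted p = 0.617) and 0.19 in ATF6bKO (95% interval -0.23 to 0.60, adjusted p = 0.436), and the ATF6aKO value changed sign with the scanner's processed signal, to -0.08. Bmpr1a, the type I receptor needed for cartilage formation together with Bmpr1b in mice, was well above background only on ATF6aKO replicate 2 and WT replicate 1. Its levels were 5.93 and 6.42 on ATF6aKO arrays, 6.11 and 6.05 on ATF6bKO arrays, and 6.30 and 6.19 on WT arrays, and no fold is given because ATF6bKO had no array above background and the other genotypes had 1 each.

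Nog encodes noggin, which blocks the receptor-binding surfaces of BMP dimers. Its levels were 9.18 and 8.76 on ATF6aKO arrays, 8.96 and 8.86 on ATF6bKO arrays, and 9.10 and 9.08 on WT arrays. ATF6aKO spread around the WT values and ATF6bKO lay just below them. The differences of -0.11 in ATF6aKO (95% interval -0.54 to 0.31, adjusted p = 0.638) and -0.18 in ATF6bKO (95% interval -0.61 to 0.25, adjusted p = 0.471) did not pass. In the authors' deposited table Nog was at -2.05 and passed in both (adjusted p = 0.00596 in ATF6aKO and 0.00583 in ATF6bKO). That table follows the green channel in the knockouts, where the Nog probe was not well above background on any array.

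Grem1 encodes gremlin, a secreted antagonist of BMP ligands. Its levels were 6.84 and 6.89 on ATF6aKO arrays, 6.57 and 6.60 on ATF6bKO arrays, and 7.21 and 7.53 on WT arrays. The 3 genotypes did not overlap, with ATF6bKO lowest and WT highest. All spots were flagged well above background, but the knockout spots exceeded it by little. They read 2.58 and 2.38 times their local background on ATF6aKO arrays, and 1.99 and 1.81 times on ATF6bKO arrays. On WT arrays the median intensity was 170 and 185 over a local background of 17. What this closeness to background does to the folds below was not tested. The level fell by 0.50 in ATF6aKO relative to WT (SE 0.17, 95% interval -0.90 to -0.11, adjusted p = 0.0453, 1.42-fold lower) and fell by 0.79 in ATF6bKO relative to WT (SE 0.17, 95% interval -1.18 to -0.39, adjusted p = 0.00937, 1.73-fold lower). Under scaling to the 75th percentile neither passed (ATF6aKO -0.31, adjusted p = 0.214; ATF6bKO -0.49, adjusted p = 0.0685). The authors' deposited table, which follows the green channel in the knockouts, turned both signs without passing (ATF6aKO minus WT 3.45, adjusted p = 0.187; ATF6bKO minus WT 3.0, adjusted p = 0.241). The ATF6aKO call was also lost without ATF6aKO replicate 1 (adjusted p = 0.119), ATF6aKO replicate 2 (adjusted p = 0.108), either ATF6bKO array (adjusted p = 0.0825) or WT replicate 2 (-0.34, adjusted p = 0.225). The ATF6bKO call was lost without ATF6bKO replicate 1 (-0.77, adjusted p = 0.0660) or ATF6bKO replicate 2 (-0.80, adjusted p = 0.0538).

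**Figure D3:**
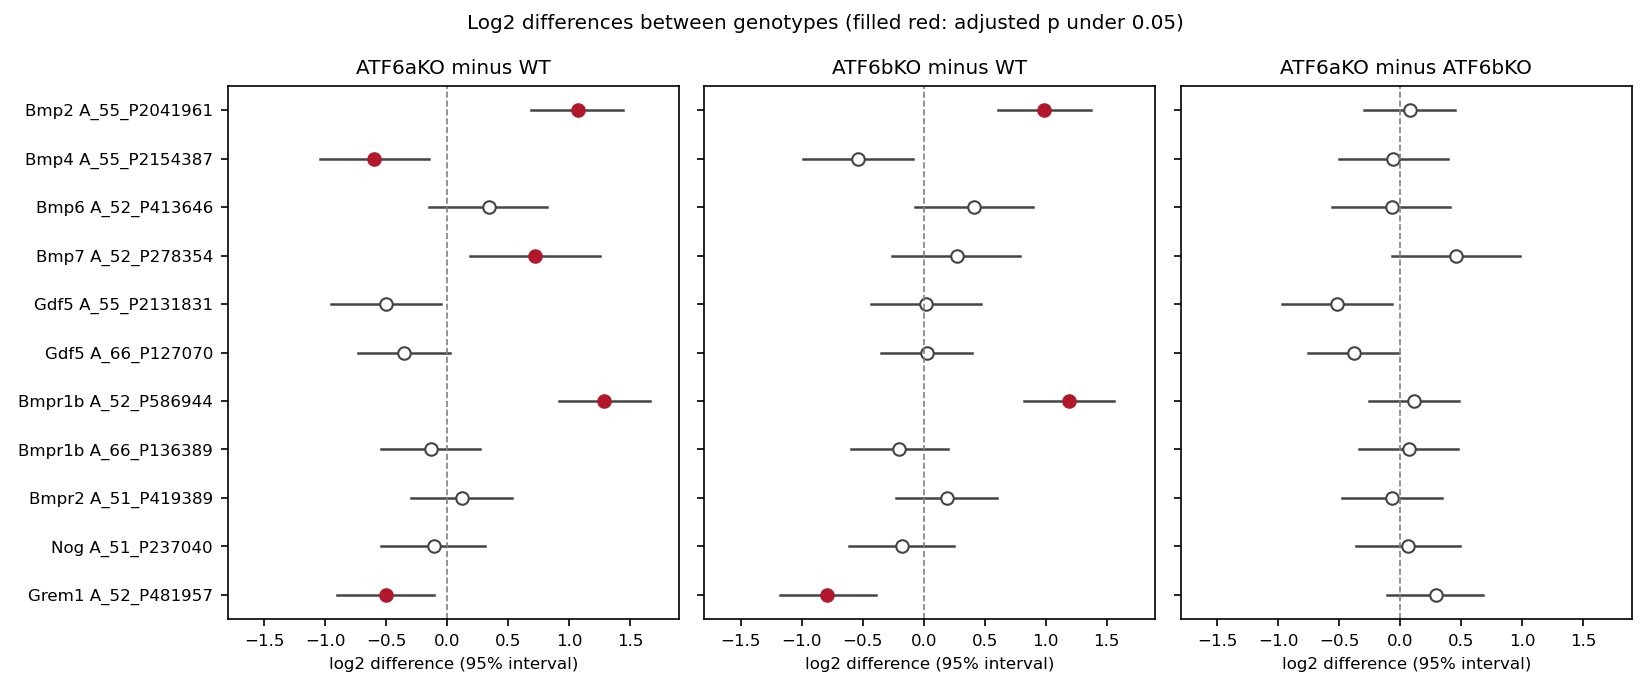
Log2 differences of the 11 tested BMP probes (points) with 95% intervals (bars), one probe per row, for ATF6aKO minus WT, ATF6bKO minus WT and ATF6aKO minus ATF6bKO. Filled red points passed an adjusted p of 0.05. Bmp2 and the Bmpr1b probe A_52_P586944 lie near 1 or above in both comparisons with WT, and no point is filled in the comparison of the knockouts.

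Over the 11 tested probes, the arrays of ATF6aKO and WT did not overlap for 7 probes, against 73.3% of all tested probes, and those of ATF6bKO and WT for 8 probes, against 73.6%. In ATF6aKO the 5 called BMP probes became 2 without ATF6aKO replicate 2 or without either ATF6bKO array, and 3 without WT replicate 1. Of the 5 genes called in ATF6aKO, Bmp2 and Bmpr1b were the ones called in all 6 such fits. The same 2 genes were called in all 6 fits in ATF6bKO. The comparisons with WT share the WT arrays.

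Between the knockouts, 0 of the 11 BMP probes and 0 of all 52495 passed (limma; background 0%). At an unadjusted p under 0.05, 2 of 11 BMP probes and 2647 of all tested probes (5.04%) lay below the threshold. Those 2 were the Gdf5 probes, at -0.52 for A_55_P2131831 (95% interval -0.97 to -0.07, unadjusted p = 0.0298, adjusted p = 0.946) and -0.38 for A_66_P127070 (95% interval -0.76 to -0.01, unadjusted p = 0.0471, adjusted p = 0.962). Bmp7 had the next lowest p, at 0.46 (95% interval -0.07 to 0.98, adjusted p = 0.962). The arrays of ATF6aKO and ATF6bKO did not overlap for 4 of 11 BMP probes, the 2 of Gdf5, Bmp7 and Grem1, against 35.6% of all tested probes. The intervals of the other probes all spanned 0 and reached at most 0.68 in size. For Bmp2 the interval was -0.30 to 0.45, and for the Bmpr1b probe A_52_P586944 it was -0.26 to 0.48.

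The other genes of the pathway were described from 5 lists of 52 genes in all, of which 45 were measured, each by its brightest tested probe. In ATF6aKO 5 of the 45 were higher than in WT and 13 lower (40.0% called), and in ATF6bKO 5 were higher and 11 lower (35.6% called). Of all named genes on the array 43.7% were called in ATF6aKO, 20.9% higher and 22.8% lower, and 38.6% in ATF6bKO, 17.7% higher and 20.8% lower. The median difference was -0.16 in ATF6aKO and -0.10 in ATF6bKO.

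Among the other BMP ligands 1 of 9 measured genes passed in each knockout. Gdf7, a close relative of Gdf5, averaged 9.55 in ATF6aKO and 9.99 in ATF6bKO against 10.71 in WT, and fell by 1.17 in ATF6aKO (SE 0.22, adjusted p = 0.00514) and by 0.72 in ATF6bKO (SE 0.22, adjusted p = 0.0364). Among 8 measured receptors and coreceptors, 2 were lower in ATF6aKO, and 1 was higher and 2 lower in ATF6bKO. Acvrl1, a type I receptor of endothelial cells, fell by 0.98 in ATF6aKO (adjusted p = 0.00871) and by 0.79 in ATF6bKO (adjusted p = 0.0218). Of the 7 endothelial markers 4 were also lower in each knockout (57.1% called, beside 43.7% and 38.6% of all named genes). A link between the 2 was not tested. Hjv, the hemojuvelin coreceptor known from iron regulation, fell by 1.28 in ATF6aKO (adjusted p = 0.00128) and by 0.79 in ATF6bKO (adjusted p = 0.00910). Rgma, its relative, was 0.77 higher in ATF6bKO (adjusted p = 0.0206).

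Of the 13 measured antagonists and chordin proteases, 3 were higher and 6 lower in ATF6aKO (69.2% called, beside 43.7% of all named genes), and 3 higher and 4 lower in ATF6bKO (53.8% called, beside 38.6%). Lower in both were Nbl1, an antagonist of the DAN family (-1.02 in ATF6aKO, adjusted p = 0.00247; -1.06 in ATF6bKO, adjusted p = 0.00241), and Chrd, which encodes chordin (-1.03, adjusted p = 0.00275; -0.84, adjusted p = 0.00692). Tll1, a protease that cleaves chordin and so acts against an antagonist, was also lower in both (-1.30 in ATF6aKO, adjusted p = 0.00494; -1.28 in ATF6bKO, adjusted p = 0.00599). Chrdl1, a chordin-like antagonist, was higher in both (1.11 in ATF6aKO, adjusted p = 0.00258; 0.56 in ATF6bKO, adjusted p = 0.0407), as was Cer1, a DAN-family antagonist (0.65, adjusted p = 0.0190; 0.79, adjusted p = 0.00969). Twsg1, a chordin-binding protein, was higher in ATF6aKO (0.88, adjusted p = 0.00899), and Bmper, a BMP-binding protein, in ATF6bKO (0.50, adjusted p = 0.0392).

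Of the 5 measured SMAD and SMURF genes, Smurf1, a ubiquitin ligase that targets BMP SMADs, fell by 1.5 in ATF6aKO (SE 0.22, adjusted p = 0.00167) and by 1.24 in ATF6bKO (SE 0.22, adjusted p = 0.00396). Smad5, a SMAD activated by BMP receptors, was 0.69 higher in ATF6aKO (adjusted p = 0.0256), and Smad1, another, fell by 0.74 in ATF6bKO (adjusted p = 0.0290). Among 10 measured BMP target genes, 1 was higher and 3 lower in ATF6aKO, and 1 was higher and 2 lower in ATF6bKO. Id1, an inhibitor of differentiation induced by BMP signals, was higher in both (0.67 in ATF6aKO, adjusted p = 0.0106; 0.49 in ATF6bKO, adjusted p = 0.0379), while its relative Id3 was lower in both (-1.48, SE 0.49, adjusted p = 0.0424; -1.67, SE 0.49, adjusted p = 0.0301). Msx1, a homeobox gene, was lower in both (-0.87, adjusted p = 0.00489; -0.67, adjusted p = 0.0154), and Dlx3, another, was lower in ATF6aKO (-1.03, adjusted p = 0.0342).

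Several of these pathway calls depended on single arrays. In ATF6aKO the calls of Gdf7, Hjv, Chrd, Chrdl1, Nbl1, Tll1, Smurf1, Id1 and Msx1 held with any 1 array left out. Without ATF6aKO replicate 2, adjusted p rose to 0.0523 for Acvrl1, 0.0505 for Twsg1 and, also lost without ATF6aKO replicate 1 and WT replicate 1, to at most 0.0815 for Cer1. Smad5 was lost without either ATF6aKO array or WT replicate 2 (adjusted p up to 0.101), and Id3 and Dlx3 without any array but WT replicate 2 (up to 0.205 and 0.164). The size for Id3 moved with the WT arrays: with WT replicate 1 left out it was -0.60 in ATF6aKO and -0.80 in ATF6bKO, and with WT replicate 2 left out it was -2.35 and -2.54. Dlx3 in ATF6aKO likewise gave -0.51 when the first WT array was dropped and -1.56 when the other was. In ATF6bKO the calls of Nbl1, Tll1 and Smurf1 held throughout. The calls of Hjv (up to 0.0613), Id3 (up to 0.12), Acvrl1 (up to 0.132), Smad1 (up to 0.141), Msx1 (up to 0.106), Chrdl1 (up to 0.228), Bmper (up to 0.198) and Id1 (up to 0.204) were lost without either ATF6bKO array, the last 3 also without either WT array, and Acvrl1, Smad1 and Msx1 also without WT replicate 2. Chrd (0.0577) and Gdf7 (up to 0.230) were lost without ATF6bKO replicate 1, Gdf7 also without WT replicate 2, and Cer1 (0.0737) and Rgma (up to 0.139) without ATF6bKO replicate 2, Rgma also without WT replicate 1.

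**Figure D4:**
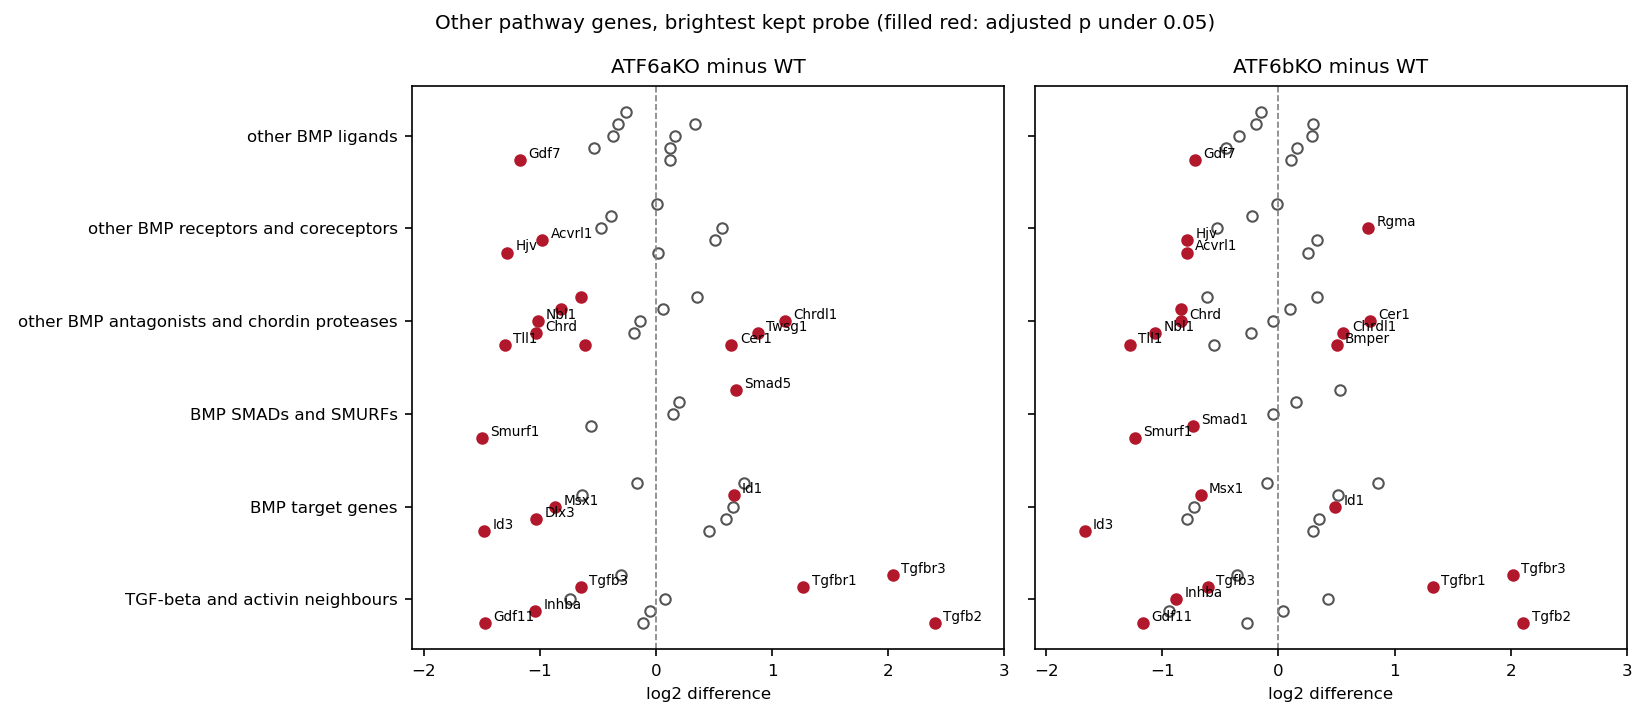
Log2 difference from WT (horizontal axis) of the measured genes of 6 lists (rows), by the brightest tested probe, with ATF6aKO left and ATF6bKO right; the vertical scatter within a row only separates points. Filled red points passed an adjusted p of 0.05, and up to 3 per direction and list are named. In the 5 BMP lists 5 points are filled on the right of 0 in each panel, and 13 (ATF6aKO) and 11 (ATF6bKO) on the left.

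The genes whose pattern over the 6 arrays was most like that of 1 member of each role were found among 19092 other genes, by Pearson's r between brightest probes. For Gdf5 (probe A_55_P2131831) these were Thsd4 (r = 0.9896) and Rilp (r = 0.9883). For the Bmpr1b probe A_52_P586944 they were Vmn2r78 (r = 0.9998) and Lratd2 (r = 0.9995), and for Nog they were Susd1 (r = 0.9964) and Egflam (r = 0.9902). The number of genes with r over 0.95 was 51 for Gdf5, 26 for Nog and 1673 for this Bmpr1b probe, whose pattern separates the slides. The other Bmpr1b probe, A_66_P136389, did not share that pattern (r = -0.63 between the 2 probes). These values describe 6 arrays that share slides and channels.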

How the data were processed

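Per the labels' protocols, growth plate RNA of 6 mouse samples was amplified, labelled with Cy5 as cDNA and hybridised to Agilent arrays. The submitters' processing notes name Agilent Feature Extraction 10.7.1.1. The deposited scanner files give median spot and background intensity and flags per spot. Per the file headers, 2 channels were read on knockout arrays under a Cy5-only setting, and 1 channel on WT arrays, so red was used for the knockouts and the single channel for WT. The authors' deposited value table holds log2 values whose differences between arrays followed the green processed signal (r at least 0.9989), also in the knockouts, where the red channel gave r of -0.0269 to 0.0869; how its values were centred stays unknown (column medians -0.5 to 0.221), and it served only as an alternative. The median spot intensity of an array was 146 to 259.5, over a median background of 37 (knockouts) or 17 (WT); 2 arrays a genotype limit the precision.

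Background correction used normexp with an offset of 50 in limma 3.58.1 (R 4.3.3). Control and feature-outlier spots were dropped (288 probes lost), log2 values of repeated spots were averaged, and arrays were brought to common quantiles. RefSeq accessions matched 26582 probes to 20145 symbols through a table of GRCm38.p6, used for names and, with its promoter table, for sequences. All genotypes were fitted together (lmFit, eBayes) over the 52495 probes for which some genotype had both arrays well above background. P-values were Benjamini-Hochberg adjusted over these, with a threshold of 0.05. The procedure was tested on simulated data for ATF6aKO minus WT, in which 200 of 52495 probes were changed. It recovered 1.00% of changes of 1 log2 unit and 57.0% of changes of 2. A difference that did not pass is therefore no sign of equal levels. Far more probes were called in the real data, so these shares do not carry over directly. Replicate numbers did not pair the arrays (correlation of same-numbered deviations -0.09, -0.03 and 0.18). Alternatives covered background correction, scaling, filters, probe choice, variance, arrays fitted, the authors' table, a replicate block and leaving out each array. The BMP genes, the pathway and marker lists and the tests were chosen with earlier results of these data known. Named genes were all members, up to 3 called genes of smallest p per pathway list and direction, Atf6 and Atf6b. For 1 member of each role, the 2 genes most like it were also named. Marker lists are given by counts and sums, with values for the markers Col2a1, Csf1r, Acp5, Ctsk and Tnni2.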

Additional observations from a re-analysis of the deposited data

Results flagged for a closer look

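The Grem1 probe gave a signal in the green channel of the knockout arrays, which no comparison above uses because the labels give Cy5 for every sample. Its green median intensity was 62 on ATF6aKO replicate 1 and 61 on ATF6bKO replicate 1, over local backgrounds of 15 and 14, and both spots were well above background. On the replicate 2 arrays it was 22 in ATF6aKO and 18.5 in ATF6bKO, not above background. The other 12 BMP probes were not above background in that channel on any knockout array. Over all non-control spots, 11.4% and 9.59% were above background in the green channel in ATF6aKO, and 12.5% and 8.45% in ATF6bKO. WT arrays have a single channel and give no control value for this signal.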

How the results depend on the processing

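Bmp2 and the Bmpr1b probe A_52_P586944 kept direction and call in both comparisons with WT under every alternative but the authors' deposited table. There the direction held, and the Bmpr1b probe did not pass for ATF6bKO (1.75, adjusted p = 0.0675). That table follows the green channel in the knockouts, where no BMP probe but Grem1 was well above background. It is therefore no check of the calls. The other alternatives used the same slides and channels, so they could not test an effect of either. Each genotype had 2 arrays, and slide and channel moved with the comparison to WT. The count of called BMP probes for ATF6aKO minus WT was 9 with the authors' deposited table, 2 with only the arrays of the 2 genotypes compared, and 2 to 6 with 1 array left out. For ATF6bKO minus WT it was 7 with the authors' deposited table and 2 to 4 with 1 array left out. The count was 0 for ATF6aKO minus ATF6bKO under every alternative. Over all probes, the count for ATF6aKO minus WT was 10424 with only probes matched to a symbol, 8150 with the brightest probe of each gene and 7789 with the mean over probes, for which fewer features were tested, and 14621 to 22182 with 1 array left out. For ATF6bKO minus WT it was 9077, 7184, 6742 and 9740 to 20672 in the same order, and for ATF6aKO minus ATF6bKO 0 to 143, the 143 without ATF6aKO replicate 2. The replicate block, a pairing by replicate number that the arrays did not bear out, gave 4 and 4 called BMP probes and 21565 and 19002 called probes in the comparisons of ATF6aKO and ATF6bKO with WT, and 0 between the knockouts; Grem1 then missed the threshold in ATF6aKO (adjusted p = 0.0564) and Bmp4 passed in ATF6bKO (adjusted p = 0.0498).

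Signs turned in these cases, and the cause was not tested. With the processed signal, Bmpr2 was -0.08 for ATF6aKO minus WT, Gdf5 probe A_55_P2131831 -0.03 for ATF6bKO minus WT, and Bmp6 0.03 and Bmpr1b probe A_66_P136389 -0.10 for ATF6aKO minus ATF6bKO. With 75th percentile scaling, Bmpr1b probe A_66_P136389 was 0.12 against WT in both knockouts and 0.00 between them, Atf6 was 0.07 for ATF6aKO and 0.08 for ATF6bKO against WT and 0.00 between them, and the Gdf5 probes were -0.06 and -0.07 for ATF6bKO minus WT. The authors' deposited table turned the most. In the knockouts it follows the other channel, where no BMP probe but Grem1 was well above background. For ATF6aKO minus WT it gave Bmp6 -1.35, Bmpr1b probe A_66_P136389 1.40, Bmpr2 -0.15, Grem1 3.45, Hjv 0.50, Cer1 -0.05, Id3 2.5, Dlx3 1.42, Tgfb3 0.20, Inhba 0.95, Col2a1 -0.45 and Atf6 0.95. For ATF6bKO minus WT it gave Bmp6 -1.40, the Gdf5 probes -3.22 and -1.94, Bmpr1b probe A_66_P136389 1.01, Bmpr2 -0.40, Grem1 3.0, Rgma -1.0, Nbl1 1.05, Id3 1.2, Msx1 2.45, Tgfb3 1.0, Inhba 1.35, Col2a1 -0.95 and Atf6 2.52. For ATF6aKO minus ATF6bKO it gave Bmp2 -0.25, Bmp4 1.48, Bmp6 0.05, Bmp7 -0.80, Bmpr2 0.25, Nog 0.00 and Atf6 -1.57. With 1 array left out, values spanned 0 for Bmpr1b probe A_66_P136389 (-0.28 to 0.02), Bmpr2 (-0.02 to 0.26) and Nog (-0.32 to 0.09) in ATF6aKO minus WT, and for the Gdf5 probes (-0.12 to 0.16 and -0.07 to 0.13) in ATF6bKO minus WT. In ATF6aKO minus ATF6bKO they spanned 0 for Bmp2 (0.00 to 0.15), Bmp4 (-0.24 to 0.13), Bmp6 (-0.34 to 0.20), Bmpr1b probe A_66_P136389 (-0.08 to 0.21), Bmpr2 (-0.21 to 0.07), Nog (-0.14 to 0.27) and Atf6b (-0.11 to 0.33). Leaving out spots with background outlier flags was an alternative chosen after seeing the data, and it gave 5, 3 and 0 called BMP probes for ATF6aKO minus WT, ATF6bKO minus WT and ATF6aKO minus ATF6bKO.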

Other observations

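The neighbouring TGF-beta and activin pathway, whose receptors use other SMADs, moved in both directions against WT. Of its 11 listed genes, all measured, 3 were higher and 3 lower in each knockout (54.5% called, beside 43.7% of named genes for ATF6aKO and 38.6% for ATF6bKO). The ligand Tgfb2 averaged 9.24 in ATF6aKO and 8.95 in ATF6bKO against 6.84 in WT, and was 5.26-fold higher in ATF6aKO (log2 difference 2.40, SE 0.20, adjusted p = 0.000388) and 4.32-fold higher in ATF6bKO (2.11, SE 0.20, adjusted p = 0.000580). The receptor Tgfbr1 (1.27 in ATF6aKO, adjusted p = 0.00121; 1.33 in ATF6bKO, adjusted p = 0.00123) and the coreceptor Tgfbr3 (2.04, adjusted p = 0.000623; 2.02, adjusted p = 0.000770) were also higher. The ligand Gdf11 (-1.47, adjusted p = 0.000863; -1.17, adjusted p = 0.00222) and Inhba, an activin subunit (-1.04, adjusted p = 0.00216; -0.88, adjusted p = 0.00467), were lower. Tgfb3 was lower too (-0.65, adjusted p = 0.0150; -0.61, adjusted p = 0.0214). Its call was lost without ATF6aKO replicate 2 or WT replicate 2 for ATF6aKO (adjusted p up to 0.0735), and without either ATF6bKO array or WT replicate 2 for ATF6bKO (up to 0.119), while the calls of the other 5 genes held with any 1 array left out. Slide and channel cannot be told apart from genotype in these values either.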
